A study of Mus musculus with 8 samples.

Results

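Cholesterol is made in nearly every cell, and the brain makes its own because lipoproteins of the blood do not cross the blood-brain barrier. The genes described here are 8 enzymes of that synthesis, Hmgcs1, Idi1, Fdps, Fdft1, Sqle, Lss, Cyp51 and Dhcr7, taken as every spot, other than control spots, whose gene name in the array design is one of these symbols. They hold 10 of the 55681 probes on the array, each present as 1 spot, and 8 of the 10, 1 for each gene, were among the 33111 probes tested. The question was whether their expression in the adult nucleus accumbens (NAc), the part of the ventral striatum that weighs effort against reward, differed after early life stress. None of the 8 probes passed the test between the groups. The log2 differences lay between -0.25 for Sqle and 0.05 for Dhcr7, and in every one of the 8 the values of the 2 groups overlapped.

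The first group, maternal separation (MS), held 4 male C3H/HeN mice that had been separated from their dams every day between postnatal days 2 and 14 while the dams went through unpredictable stress. The control group held 4 male C3H/HeN mice from undisturbed litters. Mice of both groups were weaned on postnatal day 21, lived with cage mates of the same condition, worked for sweetened milk in an operant task as adults and were fasted before the tissue was taken, so that the arrays cannot tell early separation apart from differences in what the mice then ate. Each mouse gave 1 array, made from 40 ng of total RNA from micropunches, and all 8 arrays were on 1 slide read in 1 scan. In each group 3 of the 4 mice shared the leading part of their individual number, whose meaning the labels do not give. The p-values assume independent mice. A punch holds neurons, glia and vessels, and fewer cells of a type cannot be told apart from less RNA per cell.

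The pathway starts from acetyl-CoA. Its early steps lead through HMG-CoA to mevalonate, which is turned into isoprene units that are joined to farnesyl diphosphate and then to squalene. Squalene is oxidised, closed into the ring of lanosterol and trimmed to cholesterol. The genes of the pathway are switched on together by the transcription factor SREBP-2 when membranes are short of sterol, through a sterol regulatory element in their promoters, often with an NF-Y site (a CCAAT box) nearby. In the adult brain most cholesterol sits in myelin and turnover is slow, and astrocytes and oligodendrocytes are strong producers.

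The letters before the start site are shown first, because they are where the shared control of these genes is known to act. The RefSeq promoter table (build GRCm38.p6, 300 bases per window, of which 250 lie before the start site) held 5 of the 8 genes: Hmgcs1, Idi1, Lss, Cyp51 and Dhcr7. Both strands were searched for the sterol regulatory element written as TCACNCCAC, for the CCAAT box, for the GC box written as GGGCGG, for the E-box written as CACGTG and for the cyclic AMP response element, or CRE, written as TGACGTCA. In the stretches below, all upstream of the start site and written 5′ to 3′ on the gene's strand, capitals mark every match, and a CCAAT box on the other strand reads ATTGG. A GC box on that strand reads CCGCCC.
Hmgcs1, chr13:119690108-119690338, plus strand: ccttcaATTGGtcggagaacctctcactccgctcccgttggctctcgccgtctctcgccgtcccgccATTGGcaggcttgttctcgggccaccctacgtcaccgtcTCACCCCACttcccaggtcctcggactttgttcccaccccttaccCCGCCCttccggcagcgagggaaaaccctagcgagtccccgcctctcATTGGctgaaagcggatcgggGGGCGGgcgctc
Idi1, chr13:8885531-8885602, plus strand: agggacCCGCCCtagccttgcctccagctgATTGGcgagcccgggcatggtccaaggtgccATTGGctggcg
Lss, chr10:76531433-76531553, plus strand: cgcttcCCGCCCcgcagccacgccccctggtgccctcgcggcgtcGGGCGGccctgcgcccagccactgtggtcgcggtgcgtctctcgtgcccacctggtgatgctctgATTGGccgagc
Cyp51, chr5:4104716-4104838, minus strand: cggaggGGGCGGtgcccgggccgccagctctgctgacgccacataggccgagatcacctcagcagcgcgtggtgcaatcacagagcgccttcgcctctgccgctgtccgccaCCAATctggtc

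Hmgcs1 was the one gene of the 5 whose window held the sterol regulatory element in the form searched, TCACCCCAC from base -137 to base -129 before the start site, and 1.24% of the 32851 windows of the table held those letters. A CCAAT box on the other strand stood upstream of it at -176 to -172, and its window held 4 CCAAT boxes and 3 GC boxes in all. Idi1 had 2 CCAAT boxes and 1 GC box, Lss had 1 and 2, and Cyp51 had 1 and 1. Such matches are common, since 37.4% of all windows held a CCAAT box and 35.7% a GC box. Dhcr7 has 3 windows in the table. The third held 2 CCAAT boxes and 3 GC boxes, the first held 1 GC box, and the second held the only E-box found, letters that 7.15% of windows hold. No CRE was found in the windows of the 5 genes, and no match overlapped another. A match is a run of letters and not a measured binding site.

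The probes are 60 bases long and their coordinates are those of the array headers (mm9). Hmgcs1 and Fdft1 have a second probe that stayed dim, so the tested probe of each is shown, for Hmgcs1 by its opening 30 bases. The tested Fdft1 probe is shown whole, since it runs over 4241 bases of chromosome 14 and so spans an intron, and it holds no stop codon in any of the 3 forward frames.
Hmgcs1, tested probe, chr13_random:114793-114852, minus strand: agtaattttaacgtttgggtgccaagaagt
Fdft1, tested probe, chr14:63765750-63769990, minus strand: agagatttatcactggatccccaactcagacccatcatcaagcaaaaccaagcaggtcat

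The dim Hmgcs1 probe was well above background on 0 of the 8 arrays, with a processed signal of 2.77 to 8.82. The design gives it the symbol Hmgcs1 and places it at chr13_random:114558-114617, minus strand, close to the tested Hmgcs1 probe. The description of its source sequence names a different gene, so it may not read Hmgcs1. The dim Fdft1 probe was well above background on 1 MS array and 2 control arrays. Neither was tested, and no difference is given for them. The other tested probes lie at chr13:8891524-8891583 (Idi1), chr3:88897549-88897608 (Fdps), chr15:59162688-59162747 (Sqle), chr10:76015992-76016051 (Lss), chr5:4081471-4081530 (Cyp51) and chr7:151033874-151033933 (Dhcr7). The probes of Idi1, Lss and Dhcr7 hold a stop codon in all 3 forward frames and so do not lie wholly inside coding sequence.

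Each of the 8 tested probes cleared background on every array. Levels below are log2 of the processed signal minus log2 of the 75th percentile of the same array, so that 0 is the level of a probe at that percentile, and differences are MS minus control on that scale. Values by mouse are in the order of replicates 1 to 4. Levels of different probes depend on the probe and were not set against each other.

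Hmgcs1, HMG-CoA synthase, makes HMG-CoA, the precursor of mevalonate. Its level was 3.71, 3.79, 3.96 and 3.88 in the MS mice and 3.82, 4.15, 4.02 and 3.96 in the control mice. The mean was 3.84 ± 0.11 after MS and 3.99 ± 0.14 in controls (SD, n = 4 each). All 4 MS mice were below the control mean, but the groups overlapped, with 2 MS mice above the lowest control mouse. The difference was -0.15 (SE 0.09, 95% confidence interval -0.36 to 0.06) and did not pass limma's test (adjusted p = 0.502 over all probes). As a ratio of signals this is 0.90 (0.779 to 1.04).

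Sqle, squalene epoxidase, carries out the oxygen-requiring step that follows squalene and is a control point of the pathway. Its level was 1.95, 2.09, 2.31 and 2.30 in the MS mice, against 2.25, 2.67, 2.32 and 2.44 in the control mice. The mean was 2.17 ± 0.18 after MS and 2.42 ± 0.18 in controls (SD, n = 4 each). MS replicates 1 and 2 were below every control mouse, while MS replicates 3 and 4 were above control replicate 1. The difference of -0.25 (SE 0.12, 95% confidence interval -0.52 to 0.02) had the smallest p of the 8 genes, 0.065 before adjustment, and did not pass after it (limma, adjusted p = 0.39). The ratio of signals was 0.839, with an interval from 0.695 to 1.014.

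The difference in Sqle was not even over the slide. It was -0.44 in the first slide row and -0.07 in the second, each with 2 MS and 2 control arrays, and over the 4 slide columns, each with 1 MS and 1 control array, it was 0.06, -0.37, -0.36 and -0.34. For Hmgcs1 the same values were -0.23 and -0.07 in the rows and 0.14, -0.31, -0.27 and -0.17 in the columns. In both genes the first column was the one in which the MS mouse, replicate 3, was above the control mouse, replicate 1. Control replicate 2 was the highest mouse of all 8 in both genes, and without it the difference was -0.17 in Sqle and -0.10 in Hmgcs1.

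**Figure D1:**
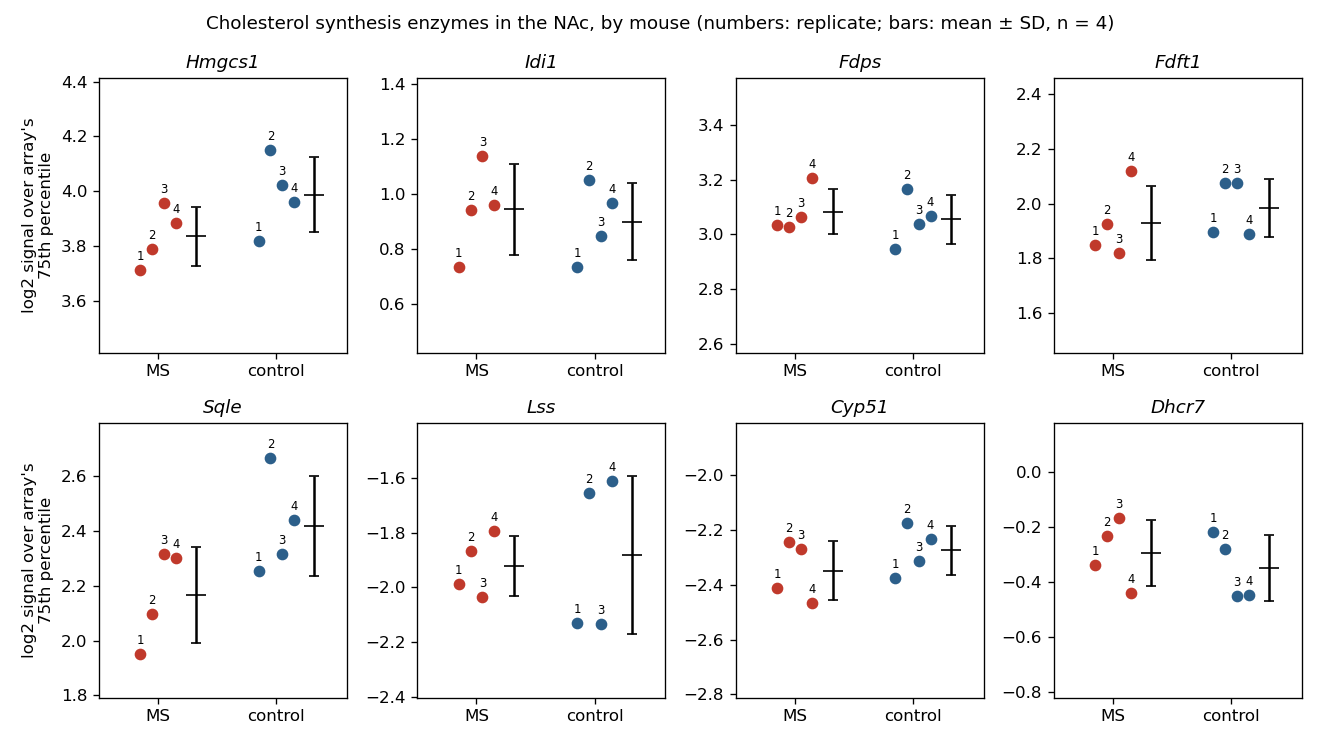
Level of each enzyme in each mouse (y axis, log2 signal over the 75th percentile of the array, each panel spanning 1 log2 unit), with MS on the left and control on the right. Points are mice numbered by replicate and bars are mean ± SD (n = 4). The groups overlap in every panel, and the gap between the means is widest for Sqle, 2.17 after MS against 2.42 in controls.

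The enzymes between HMG-CoA and squalene showed smaller differences. Idi1, which isomerises the isoprene unit so that chains can grow, had levels of 0.73, 0.94, 1.14 and 0.96 in MS mice and 0.73, 1.05, 0.85 and 0.97 in control mice. The groups covered nearly the same range, and the difference was 0.04 (SE 0.11, interval -0.20 to 0.29, limma adjusted p = 0.902). Fdps, which joins isoprene units into farnesyl diphosphate, had levels of 3.03, 3.03, 3.06 and 3.21 in MS mice and 2.95, 3.17, 3.04 and 3.07 in control mice. It had the narrowest spread of the 8 genes by the standard error of the fit (SE 0.08), and its difference was 0.03 (95% interval -0.14 to 0.20, adjusted p = 0.912).

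Fdft1, squalene synthase, takes the first step that commits farnesyl diphosphate to sterols. Its level was 1.85, 1.93, 1.82 and 2.12 in MS mice and 1.90, 2.08, 2.07 and 1.89 in control mice, so that the highest mouse of all was an MS mouse, replicate 4, and the 2 lowest were MS mice too. The difference was -0.06 (SE 0.09, 95% interval -0.26 to 0.15, limma adjusted p = 0.838).

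After squalene epoxidase, the ring is closed and modified. Lss, lanosterol synthase, had levels of -1.99, -1.87, -2.03 and -1.79 in MS mice, against -2.13, -1.65, -2.13 and -1.61 in control mice. The control mice fell into a low and a high pair with the MS mice between them, and the SD was 0.11 among MS mice against 0.29 among control mice. The difference of -0.04 had the widest interval of the 8 genes, -0.36 to 0.28 (SE 0.14, limma adjusted p = 0.937).

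Cyp51 removes a methyl group from lanosterol. Its level was -2.41, -2.25, -2.27 and -2.47 in MS mice and -2.38, -2.18, -2.31 and -2.23 in control mice. The 2 lowest values were from MS mice, and the difference was -0.07 (SE 0.08, 95% interval -0.26 to 0.11, limma adjusted p = 0.739). Dhcr7 reduces 7-dehydrocholesterol to cholesterol, the last step of one branch of the pathway. Its level was -0.34, -0.23, -0.17 and -0.44 in MS mice and -0.22, -0.28, -0.45 and -0.45 in control mice. With a difference of 0.05 (SE 0.09, 95% interval -0.15 to 0.26, adjusted p = 0.838), it overlapped almost fully between the groups.

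**Figure D2:**
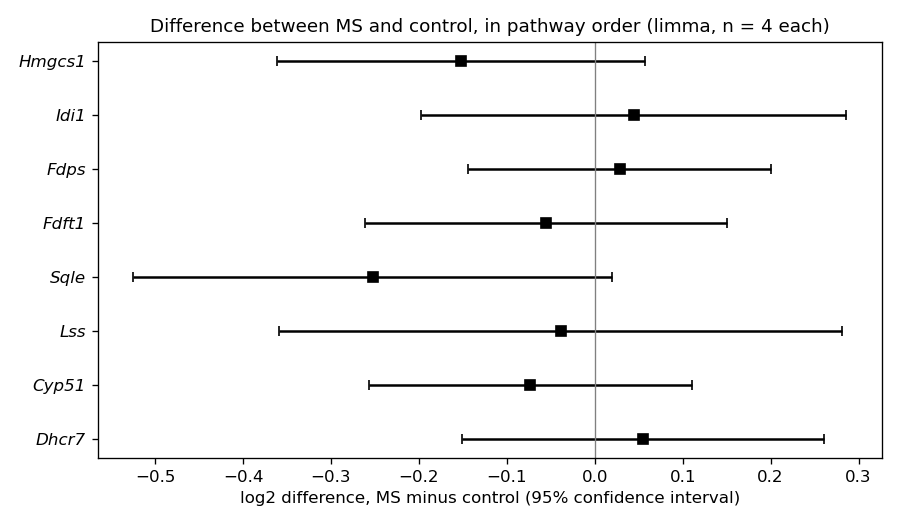
Log2 difference between MS and control for the 8 enzymes in pathway order from top to bottom (x axis, squares with 95% confidence intervals from limma, n = 4 each). Every interval crosses 0, and the interval of Sqle, -0.52 to 0.02, reaches least far past it.

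Across the 8 enzymes, 0 passed the adjusted threshold, where 0.00302% of all probes tested did (1 of 33111). That share depends on the processing, with 375 probes called on the deposited values, 457 after normexp and quantile normalization and 507 under robust moderation and a variance trend, none of them a probe of the enzymes. At an unadjusted p under 0.05 the count was also 0 of 8, where 14.1% of all probes passed, 7.64% lower and 6.47% higher in MS. Groups that did not overlap were found in 0 of 8, against 8.69% of all probes, 4.8% lower and 3.9% higher in MS. Differences were below 0 in 5 of the 8 and above 0 in 3, and 49.1% of all probes were below 0. The median difference was -0.05, beside 0.00 over all 22759 genes tested, and it lay between -0.10 without control replicate 1 and 0.0063 without control replicate 2. Taken over the 8 intervals, the lowest bound was a ratio of 0.695 of the MS to the control signal, in Sqle, and the highest was 1.22, in Idi1.

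Over the 8 arrays, 22 of the 28 pairs of enzymes had a Pearson r above 0, with a median of 0.476. Of the 7 pairs with Dhcr7, 5 were below 0, and of the 21 pairs without it 1 was. These are descriptions over 8 arrays that share a scaling. No test was made, and no median over pairs of all genes was computed to set beside them. Hmgcs1 and Sqle were closest, with r = 0.932 and Spearman's rho = 0.976. With the group means taken out, r was 0.895, and without the 2 mice farthest from the median of Hmgcs1 (MS replicate 1 and control replicate 2) it was 0.753 over 6 arrays. Idi1 followed both within groups, with r = 0.905 for Sqle and r = 0.878 for Hmgcs1, but over all 8 arrays the values were 0.587 (rho = 0.643) and 0.611 (rho = 0.571). For Sqle, r was 0.326 over 6 arrays without MS replicate 1 and control replicate 1, the 2 mice farthest from the median of Idi1. For Hmgcs1, it was 0.299 without MS replicate 1 and control replicate 2. Both were thus lower without mice at the ends of the range, and r within groups was not computed again.

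**Figure D3:**
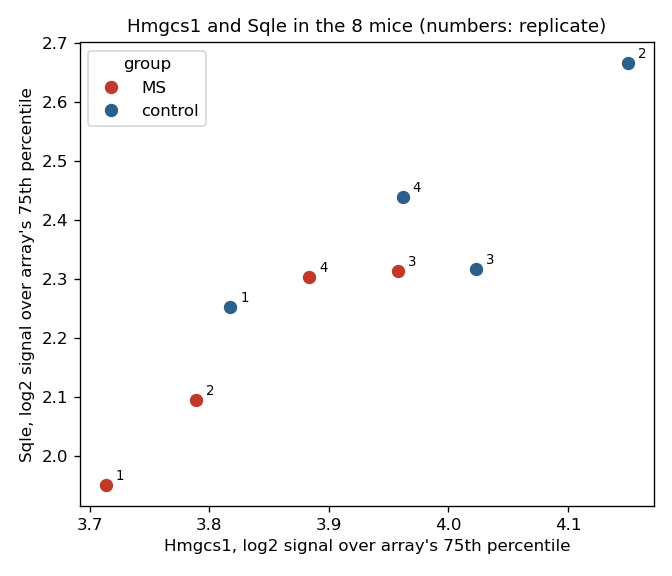
Level of Sqle against that of Hmgcs1 in the 8 mice (both axes in log2 signal over the 75th percentile of the array, MS in red and control in blue, numbered by replicate). The mice lie along 1 rising band (Pearson r = 0.932, n = 8) that holds both groups, with MS replicate 1 at its lower end and control replicate 2 at its upper end.

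The mean of the 8 enzymes in each mouse, after each was centred on its own mean over the arrays, was -0.13, -0.02, 0.03 and 0.02 in the MS mice and -0.09, 0.17, -0.03 and 0.05 in the control mice. The groups overlapped, with -0.03 ± 0.07 after MS and 0.03 ± 0.11 in controls (SD, n = 4 each). Control replicate 2 was the highest control mouse in 6 of the 8 enzymes. In 3 enzymes, Hmgcs1, Idi1 and Sqle, replicate 1 was the lowest MS mouse and replicate 1 the lowest control mouse, and these are the 2 mice whose individual numbers share no leading part with another mouse. Without these 2 mice, a comparison added after the values were seen, the difference was -0.24 for Sqle and -0.17 for Hmgcs1, and no enzyme passed.

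Dhcr7 did not follow the other enzymes over the mice, though no test was made of this. Its r with the mean of the other 7 enzymes was -0.188, and 64.8% of all genes compared had a higher one, while for Sqle, Hmgcs1 and Idi1 r was 0.83, 0.805 and 0.705, with 0.224%, 0.352% and 1.47% of genes higher. Cyp51 (0.583), Fdps (0.614) and Lss (0.525) lay between, with 3.84%, 3.37% and 6.27% of genes higher, and Fdft1 (0.314) had 17.3% of genes above it. The lowest r of any pair was -0.528, between Fdft1 and Dhcr7.

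**Figure D4:**
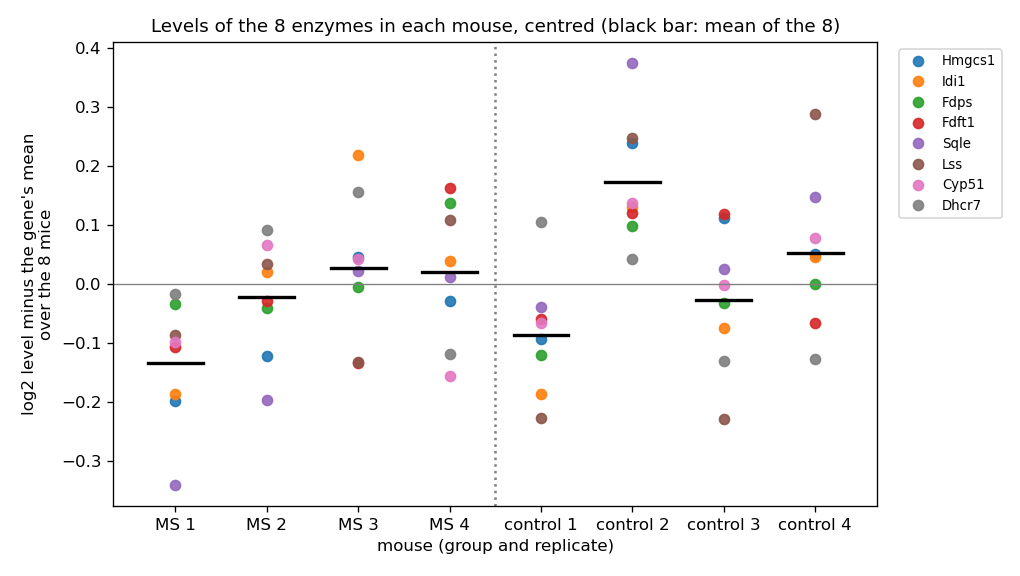
Level of each enzyme in each mouse minus its mean over the 8 mice (y axis, log2 units), with the 4 MS mice left of the dotted line and the 4 control mice right of it. Coloured points are enzymes and black bars their mean, lowest in MS replicate 1 (-0.13) and highest in control replicate 2 (0.17).

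Among 13900 other genes that cleared background on every array, the 5 whose levels followed the mean of the enzymes most closely were Ggps1 (r = 0.968), Fhdc1 (0.948), Cyth3 (0.932), Prdm9 (0.930) and Agmo (0.926). The median r over all these genes was 0.01, and 0.0576% of them were above 0.9. Ggps1 makes geranylgeranyl diphosphate from farnesyl diphosphate, the product of Fdps, and so draws on the same isoprene units. The difference of Ggps1 between MS and control was -0.08 (SE 0.08, limma adjusted p = 0.673). Both its r and this difference are from 1 probe, and of its 2 other tested probes 1 had a difference of opposite sign. The 5 were picked as the closest of many over only 8 arrays.

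The other enzymes of the pathway were compared as a list of 13 genes, all tested. None passed the adjusted threshold, 9 were below 0 (49.1% of all probes) and 4 above, and the median difference was -0.09, or -0.05 without MS replicate 1. At an unadjusted p under 0.05, 2 were lower (7.64% of all probes) and 0 higher. Acat2, which makes acetoacetyl-CoA at the head of the pathway, averaged -0.37 ± 0.01 after MS and -0.11 ± 0.13 in controls, a difference of -0.26 (SE 0.08, adjusted p = 0.195). Nsdhl, which acts in the removal of methyl groups after Cyp51, averaged -1.24 ± 0.05 after MS and -1.02 ± 0.09 in controls, a difference of -0.21 (SE 0.07, adjusted p = 0.237). Pmvk, phosphomevalonate kinase, gave -0.14 (adjusted p = 0.392, SE 0.07). For these 3 enzymes the 4 MS mice were all below the 4 control mice, which holds for 4.8% of all probes. The mean of this list followed that of the 8 enzymes over the mice with r = 0.843 (n = 8 arrays).

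Of 12 genes of sterol sensing and SREBP processing, all tested, 6 were below 0 and 6 above, with a median of -0.00, and none passed after adjustment. Srebf2, which encodes SREBP-2, differed by 0.13 (SE 0.11, adjusted p = 0.634), and its other tested probe had the opposite sign. Scap, the escort of SREBP to the Golgi, differed by 0.07 (SE 0.06, adjusted p = 0.666). Insig1, which holds SCAP back when sterol is plentiful and is itself an SREBP target, differed by -0.22 (SE 0.12, adjusted p = 0.469), and the ubiquitin ligase Syvn1 by 0.15 (SE 0.09, adjusted p = 0.467). Srebf1, whose products act mainly on fatty acid synthesis, was the only one of the 12 with an unadjusted p under 0.05 (7.64% of all probes, lower in MS). It averaged -0.73 ± 0.08 after MS and -0.48 ± 0.12 in controls (difference -0.25, SE 0.08, limma adjusted p = 0.242). Its groups did not overlap (4.8% of all probes, lower in MS).

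The 10 SREBP targets of fatty acid synthesis were below 0 in 9 of 10 (49.1% of all probes), with a median of -0.16, and none passed after adjustment. At an unadjusted p under 0.05, 3 of the 10 were lower (7.64% of all probes). These were the stearoyl-CoA desaturases Scd2 (-0.20, SE 0.06) and Scd1 (-0.29, SE 0.11), and Acss2 (-0.28, SE 0.10), which makes acetyl-CoA from acetate. Their adjusted p-values were 0.228, 0.305 and 0.293. In Scd2 and Acaca, 2 of the 10, the groups did not overlap (4.8% of all probes, lower in MS). The summed level of the list, in multiples of the 75th percentile, was 111 to 121 in MS mice and 121 to 133 in control mice, and the highest MS mouse was just above the lowest control mouse. The brightest gene, Scd2, weighs most in this sum. With each gene centred on its own mean, the groups did not overlap, with -0.149 to -0.0085 in MS mice and 0.0039 to 0.147 in control mice. Centred in the same way, the 13 other enzymes and the 12 sterol sensing genes overlapped. How often such lists separate was not computed.

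Of 20 genes of cholesterol transport and turnover, 18 were tested, with 13 below 0 (49.1% of all probes), a median of -0.05 and none called after adjustment. At an unadjusted p under 0.05, 3 of the 18 were lower (7.64% of all probes): Npc1 and Lipa, which release cholesterol from lysosomes (-0.26, SE 0.10, and -0.34, SE 0.13), and the receptor gene Lrp8 (-0.35, SE 0.14). Their adjusted p-values were 0.294, 0.315 and 0.315. Ch25h and Cyp27a1 were not tested. The mean of the 18, each centred on its own mean, was -0.0585 to -0.0109 in MS mice and 0.0254 to 0.0666 in control mice, without overlap. Among 8 genes that use farnesyl diphosphate for products other than sterols, 7 were below 0 (49.1% of all probes) and none passed. The median was -0.07 (-0.04 without MS replicate 1). Their centred mean was -0.103 to -0.0115 in MS mice and -0.0007 to 0.0911 in control mice, without overlap. At an unadjusted p under 0.05, 1 of the 8 was lower (7.64% of all probes), Pdss2 of ubiquinone synthesis. Pdss2 differed by -0.19 (SE 0.07, limma adjusted p = 0.289) without overlap (4.8% of all probes, lower in MS), and its other tested probe had the opposite sign. Fnta, a subunit of protein prenyltransferases, differed by -0.14 (SE 0.07), and Dhdds, of dolichol synthesis, by -0.10 (SE 0.08), with another tested probe of opposite sign.

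**Figure D5:**
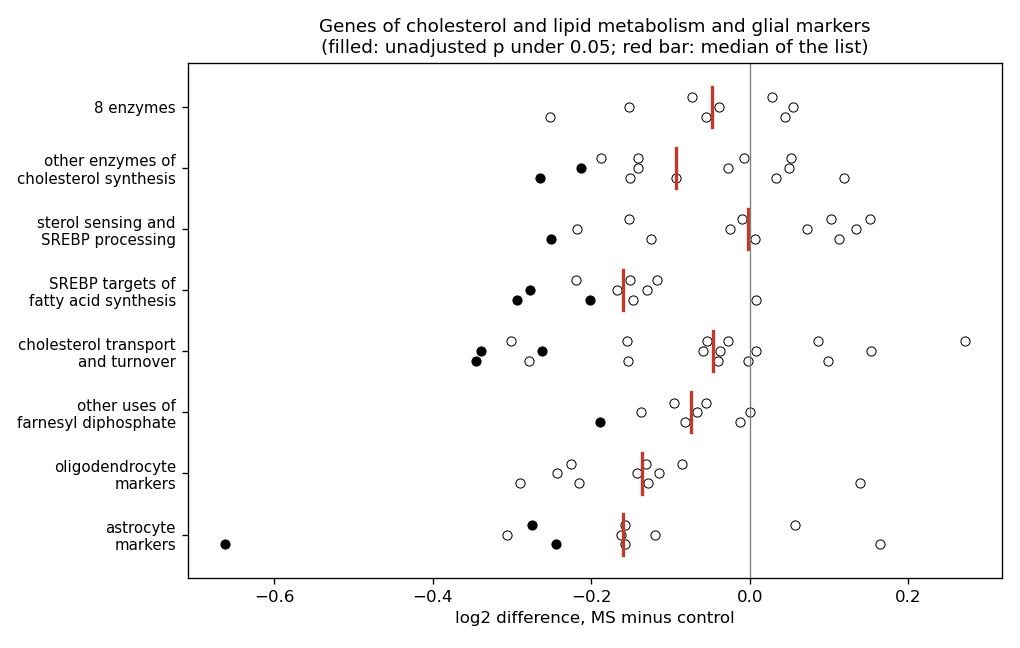
Log2 difference between MS and control (x axis) for the genes of 8 lists, 1 point per gene, filled where the unadjusted limma p was under 0.05, with the median of each list as a red bar. The 8 enzymes hold no filled point, and the medians lie between -0.16 and -0.00.

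The cell types that make or hold cholesterol were read from marker genes in the same fit. No gene of the marker lists was called after adjustment, in a fit that called 1 of 33111 probes. The lowest adjusted p-values of these lists were 0.0719, for Npas1 and Lhx8 of the pallidal list (limma). The paper names Npas1 and Pvalb, both of that list, among genes affected by early stress in the NAc of these mice. Of 10 oligodendrocyte markers, 9 were below 0 (49.1% of all probes), with a median of -0.14 and 0 at an unadjusted p under 0.05 (14.1% of all probes). Their summed level was 227 to 304 in MS mice and 257 to 312 in control mice. Their median was -0.07 without control replicate 4, -0.08 without MS replicate 4, -0.21 without MS replicate 1 and -0.22 without control replicate 1. Ermn differed by 0.14, and another Ermn probe had the opposite sign. Mbp, counted below 0 at -0.23, had 2 other tested probes, and 2 were of opposite sign. Of 10 astrocyte markers, 8 were below 0, with a median of -0.16, and 3 were lower at an unadjusted p under 0.05 (7.64% of all probes). Their sums were 292 to 317 in MS mice and 321 to 368 in control mice, which did not overlap. The brightest marker, Aldoc, weighs most in such a sum. With each marker centred on its own mean, the groups overlapped, with MS replicate 3 at -0.0198 and control replicate 2 at -0.0241. The 3 astrocyte markers under 0.05 were Gfap (-0.66), S100b (-0.27) and Aldh1l1 (-0.24), with limma adjusted p-values of 0.25, 0.259 and 0.315. In 2 of the 10, Aldh1l1 and Aldoc (-0.16), the groups did not overlap (4.8% of all probes, lower in MS). Slc1a2 (0.16) and Aqp4 (0.06) were above 0. All 10 markers of medium spiny neurons, the main neurons of the NAc, were tested and above 0. Of these, 4 were higher at an unadjusted p under 0.05 (6.47% of all probes). Their median was 0.36, with Penk at 0.23 and Ppp1r1b at 0.25. Control replicate 4, the array with 69.7% of probes above background, had the lowest summed level of these markers (612), and without it the median was 0.24. All 6 genes listed as markers of pallidal neurons, cells of the neighbouring pallidum, were lower without overlap (4.8% of all probes). Each was lower at an unadjusted p under 0.05 (7.64% of all probes). The list was chosen with earlier results of these data known, so these counts are not independent of them. Which cells gave the signal of the 6 genes was not tested. The median of the 6 was -1.34, with sums of 4.00 to 8.32 in MS mice and 10.102 to 17.3 in control mice. Of the pallidal markers, Vamp1 differed by -1.24 and Lhx8 by -0.92. The part of these markers in the differences of the enzymes was not tested. Over the 8 mice, the mean of the enzymes followed that of the oligodendrocyte markers with r = 0.155, the astrocyte markers with 0.218, the pallidal markers with 0.431, the medium spiny markers with -0.0845 and 6 general neuronal markers with 0.580.

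Of the other marker lists, microglial markers had a median of -0.13, or -0.08 without MS replicate 2 and -0.06 without control replicate 3. Itgam gave 0.12, with other probes of opposite sign, and Csf1r -0.15. Of the 6 microglial markers, 5 were below 0 (49.1% of all probes). One of them, Ctss at -0.30, was lower at an unadjusted p under 0.05 (7.64% of all probes, limma adjusted p = 0.25). Blood vessel markers had a median of -0.00 (Ly6c1 0.05 and Flt1 0.08), and general neuronal markers 0.01 (Eno2 0.01 and Syt1 -0.07). Among the 6 vessel markers, Tek at -0.22 was lower at an unadjusted p under 0.05 (7.64% of all probes, limma adjusted p = 0.302). Of the 6 general neuronal markers, 1 was lower at an unadjusted p under 0.05 (7.64% of all probes), Stmn2 at -0.62 (limma adjusted p = 0.192). In Stmn2 the groups did not overlap (4.8% of all probes, lower in MS). Housekeeping genes had a median of -0.03 (Gapdh -0.05 and Ppia -0.02), or 0.01 without control replicate 3 and -0.07 without control replicate 4. The number of arrays limits the precision of all values above. Probes above background made up 57.3% to 69.7% of an array, on average 59.4 ± 1.55% in MS mice and 61.3 ± 5.75% in control mice (SD, n = 4 each, exact two-sided permutation p = 0.83). The signal at the 75th percentile averaged 368 ± 33.0 in MS mice and 355 ± 60.7 in control mice (exact two-sided permutation p = 0.714, where 4 against 4 can reach 0.0286 at the lowest). No spot was saturated.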

How the data were processed

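Total RNA from NAc micropunches of 4 MS and 4 control mice was hybridised on 1-colour Agilent mouse arrays. Probe names and mm9 coordinates come from the array design in the file headers, which is not the design that the study's methods name. The authors deposited background-subtracted intensity values per spot, linear in scale. The submitters' processing notes name Agilent Feature Extraction 10.10.1.1 and limma. The authors also deposited log2 values for 31261 probes, which followed the log2 mean signal of the same arrays (lowest r 0.9997, column medians 8.01). Their normalization is not given in the sources used here.

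Control spots and flagged outliers (122 to 189 per array) were left out. Processed signals were put on the log2 scale and set relative to the array's own 75th percentile. The test took the 33111 probes that cleared background on 4 or more of 8 arrays, with limma 3.58.1 (lmFit, eBayes) in R 4.3.3, Benjamini-Hochberg adjustment over all of them and a threshold of 0.05. Array totals were compared by exact permutation. Genes were named through RefSeq tables (GRCm38.p6), and a listed gene was read from its tested probe with the highest mean level. In simulated data of this design, 9 of 50 probes changed by 0.5 on the log2 scale were called, and 40 of 50 changed by 1. The simulated probes varied independently and few were changed, whereas 14.1% of probes had an unadjusted p under 0.05 in the data. These rates may therefore not hold for the data, where Npas1 at -2.26 was not called. No change as small as those of the enzymes was simulated.

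The enzymes and lists were chosen with earlier results of these data known. Named were the enzymes, the 3 genes of smallest p in each lipid list with Srebf2, Scap and Insig1, the 2 brightest of each marker list, and the 5 genes most like the enzymes. Acaca, Ch25h, Cyp27a1, Stmn2, Mbp, Slc1a2, Aqp4, Gfap, Aldh1l1, Ctss, Tek, Npas1 and Pvalb were named after their values were seen. A few items that the rule covers are not reported here.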

Additional observations from a re-analysis of the deposited data

How the results depend on the processing

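No enzyme was called under any of 19 alternatives, 18 planned and 1 added after the data were seen. Hmgcs1, Fdft1, Sqle, Cyp51 and Dhcr7 kept their sign in all 19. Sqle ranged from -0.31 to -0.17 (adjusted p from 0.22 to 0.641). Its unadjusted p was under 0.05 in 6 of them: 0.0206 with normexp background correction and quantile normalization, 0.0212 with the deposited values, 0.0273 under robust moderation and a variance trend, 0.0452 with the leading individual number as a random block, 0.0476 without MS replicate 3 and 0.0433 without control replicate 1. In the same order, 5198, 4873, 4984, 6272, 4278 and 3865 of all probes were under 0.05. Each fit tested 33111 probes, except 31261 with the deposited values. No leading number occurs in both groups, and the random block's estimated correlation was negative, with a smaller SE for Sqle (0.107, against 0.119 in the main fit). Hmgcs1 ranged from -0.21 to -0.10, and its unadjusted p was 0.0448 under normexp and quantile normalization. Leaving out 1 mouse at a time, 3 enzymes near 0 changed sign. Idi1 ranged from -0.021 to 0.114 and was below 0 without MS replicate 3 and without control replicate 1 (-0.011). Fdps ranged from -0.013 to 0.065 and was below 0 without MS replicate 4 and without control replicate 1 (-0.0073). Lss ranged from -0.122 to 0.051 and was above 0 without control replicate 2 (0.037) and without control replicate 4. The median of the 8 enzymes was 0.0063 without control replicate 2.

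The number of all probes called, 1 as reported, moved far more. It was 457 with normexp and quantile normalization, 81 with median scaling, 375 with the deposited values, 105 with probes well above background on all 8 arrays, 507 under robust moderation and a variance trend and 453 with the random block, whose estimated correlation was -0.114. It was 0 with no filter, 0 with slide column as a block and 0 without replicate 1 of both groups. Leaving out 1 mouse gave 0 to 37, the 37 without control replicate 3. The cause was not tested. Each enzyme had 1 tested probe, so averaging probes of a gene changed none of them. No paired analysis by mouse was possible because the individual numbers of the labels do not match MS mice to control mice. The fit with slide column as a block pairs arrays by position only, and gave Sqle -0.25 (adjusted p = 0.414).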
